A study of Mus musculus with 2 samples.

Results

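Editing levels of 1.0% to under 1.2% formed the bottom of the authors' list of C-to-U sites in RNA of mouse cortical nuclei sorted for NeuN, and 979 of the 17755 listed sites (5.51%) fell into that range. These low-level sites were chosen by the listed editing level alone, so the level is a description here and carries no test. They lay in 679 of the 6929 genes of the list (9.8%). The study's single group consisted of 2 libraries from cortex of tamoxifen-treated mice of the genotype given as APOBEC1-YTH, aged 10 weeks when dosing began. Tamoxifen was given at 20 mg/kg every 24 hours over 5 days, and material was taken 7 days after the last dose. Nuclei were fixed in 50% ethanol before staining for NeuN, the neuronal splicing regulator encoded by Rbfox3. Which promoter drove the editor, and whether animals were pooled, is not given in the sources used here. There was no group without the editor, and the table gives 1 value per site for both libraries together, so no spread between libraries can be stated for any level.

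N6-methyladenosine (m6A) is the most common internal base modification of messenger RNA, placed by a writer complex around METTL3 and METTL14 and bound by proteins with a YTH domain. In the fusion protein used here, the YTH domain brings the cytidine deaminase APOBEC1 to methylated RNA, and cytidines near the modified adenosine are turned into uridines. In brain, m6A is known for its roles in neural development, in glial differentiation and in the supply of transcripts to synapses. A level of about 1% is a very small share of edited reads and can be listed only where many reads cover the position. The table holds no coverage, so the depth behind each level is unknown and no counting interval can be given.

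Inside the range the levels showed no strong lean to either end. Of the 979 sites, 500 were below 1.1%, and the median was 1.09%. The lowest sites stood at 1.0% and included those in Eif5b, Nfasc, Enah, Ddit3 and Aff4. The highest inside the range stood at 1.19% and included those in Ncan, Acsbg1, Bnip2 and Xist. The first sites above it were listed at 1.2%, among them sites in Dst, Map2, Eif4e2, Clasp1 and Kif21b. The next range of the same width, 1.2% to under 1.4%, held 897 sites in 670 genes, and the list has no gap between the ranges.

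**Figure D1:**
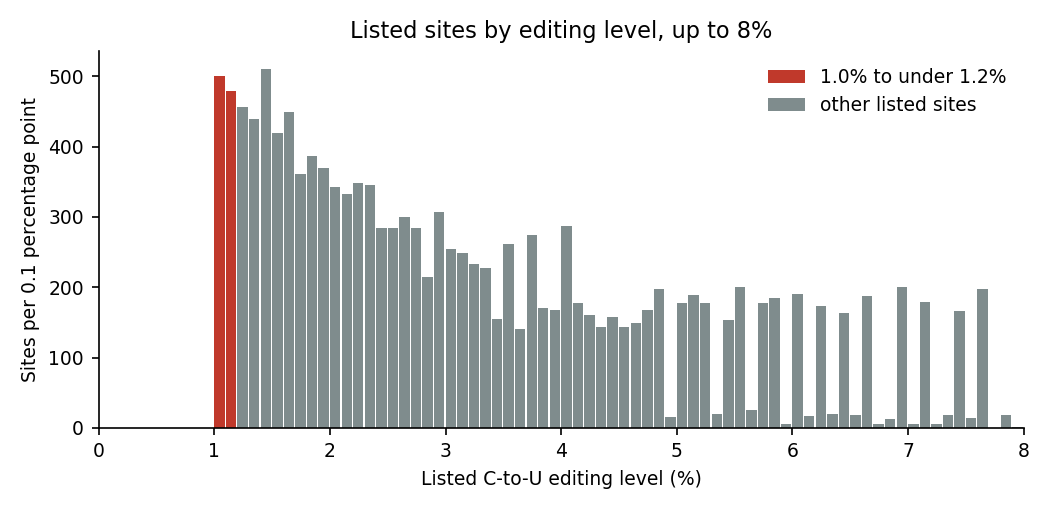
Number of listed sites (y axis) per 0.1 percentage point of editing level (x axis), shown up to 8%, with sites at 1.0% to under 1.2% in red. The list starts at 1.0% with 500 sites in its first 0.1 percentage point, and counts go on above the range without a break.

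Sequence around a site was at hand only where the site fell into a RefSeq promoter window (GRCm38.p6, the assembly of mm10), which runs from 250 bases before to 50 bases after an annotated start. This was so for 13 of the low-level sites and for 255 listed sites in all, and the window could be that of an overlapping gene. The edited base was a C on the strand of the site in all 255, which checks the positions, the strand and the build. Of the 13, 8 are shown because they lie in a leading gene (Slc4a4), form a close pair (Hnrnpl), belong to a noncoding RNA (Rpph1), lie in a splicing kinase gene (Clk4) or have an A before the edited base (Rasa3). They were picked after their sequences were seen. The capital marks the edited C, and each runs 5′ to 3′ on the strand of the RNA.
Slc4a4, 1.16%, chr5:88887059-88887087, plus strand: cagtgcgcagccacCcacccggcgccaaa
Slc4a4, 1.03%, chr5:89225849-89225877, plus strand: acttcatctacctgCgccacgtccccctc
Slc4a4, 1.01%, chr5:89225920-89225948, plus strand: gctctgctctggatCctcaagtcaacagt
Hnrnpl, 1.12%, chr7:28810917-28810939, plus strand: cggaggctgctgccCcgggcgga
Hnrnpl, 1.14%, chr7:28810922-28810939, plus strand: gctgctgccccgggCgga
Rpph1, 1.18%, chr14:50807734-50807762, minus strand: aggaagctcatcagCggggccacgtgctg
Clk4, 1.06%, chr11:51263251-51263279, plus strand: gccgcttgcttttgCggaggtgaggtggg
Rasa3, 1.05%, chr8:13583749-13583777, minus strand: ccttttccagctgaCaccccaccacacgg

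The m6A consensus has the methylated A directly before a C, so the base before the edited C was read for each site. It was a G at 7 of the 13 low-level sites, a C at 3, a T at 2 and an A at 1, the Rasa3 site shown above. Over all 255 sites in such windows, an A stood before the edited C in 16.5% and a G in 51.2%. Among all cytidines of the promoter windows on either strand, an A stood before 18.2% and a G before 27.7%. The triplets GAC and AAC, the 2 forms of the core of the consensus, were then searched in the 29 bases centred on the site. Of the 10 low-level sites with a full window, 5 held GAC or AAC on the strand of the RNA. The share was 49.8% of the 209 listed sites with a full window and 48.8% of all windows of that length centred on a promoter cytidine. GAC was found on the strand of the RNA at 4 of the 10 and on the other strand at 3, and AAC at 1 on each strand. These windows hold few sites and lie at gene starts, where sequence is rich in G and C, and a match is a description of letters only.

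The genes with the most low-level sites were led by genes of glutamate and ion transport, endocytosis and the membrane skeleton. Together the 20 leading genes held 108 of their 371 sites in the range (29.1%). As the sites of these genes were ranked by the same values, this share is a description of the choice. Most genes had few such sites: 490 had 1, 127 had 2 and 62 had 3 or more.

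Slc1a2, which encodes the main glutamate transporter of astrocytes (chromosome 2, 102658239 to 102790784), had 9 low-level sites of its 38. Their levels were 1.04%, 1.04%, 1.05%, 1.06%, 1.08%, 1.09%, 1.12%, 1.13% and 1.19%. They formed 3 close pairs, 32, 29 and 18 nt apart, and the other 3 sites had no low-level site nearby. The other sites of Slc1a2 ranged from 1.24% to 11.29%. The second glial glutamate transporter gene, Slc1a3, had 4 of 23, at 1.07% to 1.13%, and its other sites reached 3.29%. In Kcnj10, the inward rectifier potassium channel of astrocytes (chromosome 1, 172341210 to 172374085), 6 of 36 sites were in the range. They stood at 1.01%, 1.05%, 1.08%, 1.09%, 1.09% and 1.12%, and 4 of them lay within 106 nt. All 6 were within 2430 bp of the 3′ end of the gene span, and all 36 sites of Kcnj10 lay in its last 5 kb. Other sites of Kcnj10 reached 14.95%. Slc4a4, a sodium bicarbonate cotransporter of astrocytes, had 5 of 13, at 1.01% to 1.16%. Glud1, the mitochondrial enzyme that converts glutamate to α-ketoglutarate (chromosome 14, 34310727 to 34345033), had 6 of 13 sites in the range. These 6 sites stood at 1.03%, 1.08%, 1.11%, 1.15%, 1.16% and 1.18%, all between 764 and 1305 bp from the 3′ end. All 13 sites of Glud1 lay in the last 5 kb, and no other Glud1 site exceeded 3.23%.

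Receptor genes formed the next group of leading genes. Lrp1, an endocytic receptor for apolipoprotein E and other ligands (chromosome 10, 127538157 to 127621148), had 8 of its 17 sites in the range. These stood at 1.04%, 1.06%, 1.06%, 1.12%, 1.13%, 1.15%, 1.18% and 1.18% and were strewn from 1085 to 36879 bp from the 3′ end. Sirpa, the receptor for CD47 that restrains phagocytosis (chromosome 2, 129591042 to 129632228), had 7 of 9 sites in the range, at 1.05%, 1.05%, 1.06%, 1.07%, 1.1%, 1.13% and 1.18%. The other Sirpa sites were at 1.4% and 1.85%, so no Sirpa site was far above the lowest listed level. Notch1 had 5 of 14 at 1.02% to 1.17%, with its other sites at up to 4.85%. Ptprz1, the receptor tyrosine phosphatase of oligodendrocyte precursors and radial glia, had 4 of 20 at 1.02% to 1.12%. Pdgfrb, the platelet-derived growth factor receptor of pericytes, had 4 of 11 at 1.08% to 1.18%.

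Large structural proteins were also among the leaders. Dst, a giant linker of cytoskeletal filaments (chromosome 1, 33907888 to 34308662), had 6 of 29 sites in the range, at 1.06%, 1.07%, 1.09%, 1.14%, 1.17% and 1.19%. All 6 lay between 41724 and 106064 bp from the end of the span. Syne1, a nuclear envelope linker protein gene, had 5 of 16, between 83499 and 383694 bp from the end. Ank2, the ankyrin that anchors membrane proteins to spectrin, had 5 of 27 at 1.03% to 1.13%, and the spectrin gene Sptbn1 had 5 of 11 at 1.02% to 1.14%. Of these, 2 of the 5 in Ank2 and 1 of the 5 in Sptbn1 lay in the last 5 kb. In Arhgap5, a GTPase activator gene, 5 of 28 sites were in the range, at 1.03% to 1.14%, and they lay between 52231 and 55327 bp from the end. Only 3 of all 28 Arhgap5 sites lay in the last 5 kb.

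The remaining leaders act in the nucleus or on RNA. The histone methyltransferase gene Kmt2c (chromosome 5, 25271795 to 25498855) had 5 of 16 sites in the range, at 1.03%, 1.05%, 1.06%, 1.07% and 1.16%, while its highest site reached 25.64%. Son, a splicing cofactor of nuclear speckles, had 5 of 11 at 1.02% to 1.16%, all between 22328 and 23525 bp from the end. No site of Son at any level lay in the last 5 kb. Cpeb4, a regulator of cytoplasmic polyadenylation, had 4 of 8 at 1.07% to 1.18%, all within 3600 bp of the end. All 8 sites of Cpeb4 lay in the last 5 kb. Xist, the RNA that silences an X chromosome, had 5 of 23 at 1.01% to 1.19%. Utp14b had 5 of 8 at 1.02% to 1.18%, but 3 of the 5 lay outside its RefSeq span. That gene shares its start with Acsl3, so sites of Utp14b and of Acsl3 cannot be told apart from the gene name alone.

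**Figure D2:**
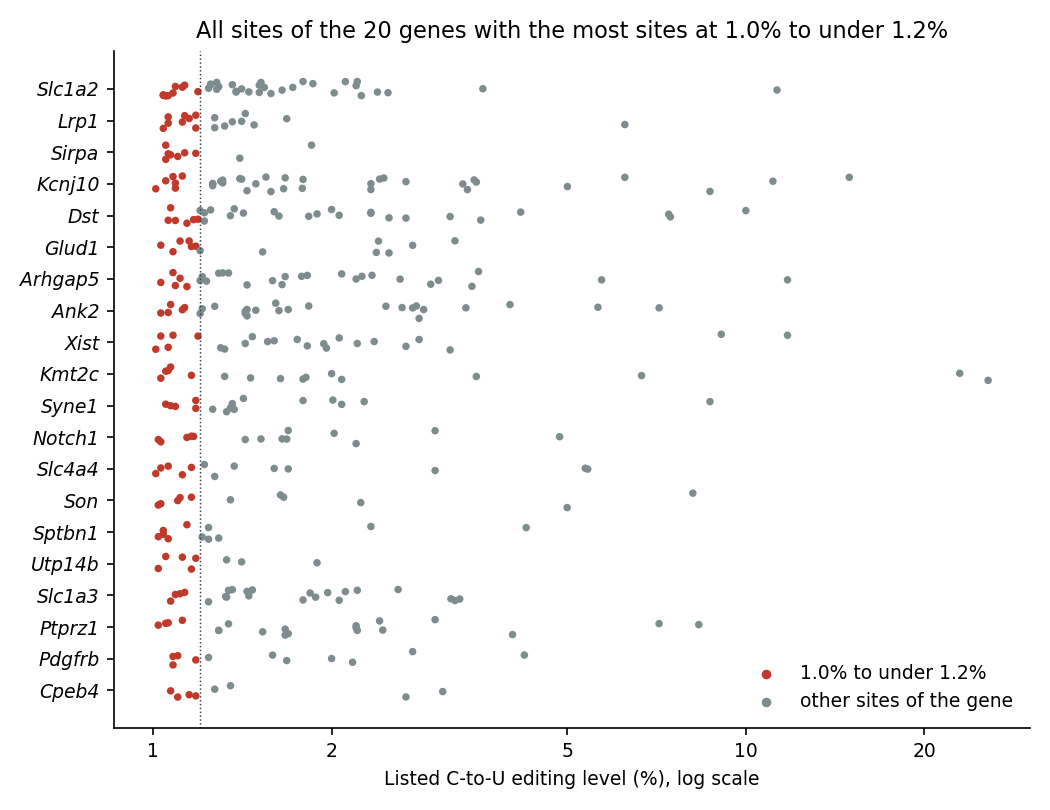
Editing level of every listed site (x axis, log scale) in the 20 genes with the most sites at 1.0% to under 1.2%, 1 gene per row; vertical scatter within a row has no meaning. Red points are the sites in the range and grey points the other sites of the same gene. In Sirpa 7 of 9 sites are red, whereas in Kmt2c the sites run from 1.03% to 25.64%.

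In some genes no site stood higher. All sites were in the range in 11 genes with more than 1 site, and in 84 genes the sole site was. Chd4, the ATPase of the NuRD chromatin remodelling complex, had 3 sites at 1.01%, 1.05% and 1.13%, within a stretch 25341 to 25707 bp from the 3′ end. Ddx17, an RNA helicase gene, had 3 sites at 1.12%, 1.17% and 1.17%. Among the genes with 2 sites in the range and none above it were Hnrnpl and Sf3b2, which act in splicing, and the proteasome ATPase gene Psmc3. Sod3, the extracellular superoxide dismutase gene, was another, as was Stab1, a scavenger receptor gene. These examples were picked after their values were seen. In Eif3a, a subunit gene of a translation initiation factor, 3 of 4 sites were in the range and the remaining one was at 13.33%. In Acin1, a splicing-associated gene, 2 of 3 were in the range.

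Elsewhere a low-level site shared its gene with a much higher one. Of the 679 genes, 280 (41.2%) also had a site at 5% or more, 100 (14.7%) had one at 10% or more and 16 had one at 20% or more. Among all genes of the list the shares were larger, 63.3% at 5% or more and 31.5% at 10% or more. In the 595 genes with a low-level site and at least 1 more site, the highest level was a median of 4.31 times the lowest (quartiles 2.7 and 7.19). The choice of sites holds that lowest level between 1.0% and 1.19%, so such ratios mainly restate the highest level of the gene. Mylip, an E3 ubiquitin ligase gene for lipoprotein receptors, had 1 site at 1.16% and another at 40%. Slco1a4, an organic anion transporter gene of brain endothelium, had 1 site at 1.07% and 1 at 30%. Slc1a4, a neutral amino acid transporter gene, had 2 of 20 sites in the range and its highest at 22.79%. The largest ratio, 61.0, was that of Gm10718, at 1.03% and 62.8%. Low-level sites were also listed for Gm17535, Gm10800 and Gm10715, and for Rnu3b1, Rnu3b3 and Gm22068, which RefSeq classes as small nuclear RNA genes. Loci of this kind occur in near-identical copies that can share reads, so these levels are uncertain.

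The share of sites in the range went up with the number of sites in the gene. Of the sites in single-site genes 2.46% were in the range (84 of 3408). The share was 4.27% in genes with 2 to 4 sites, 7.05% with 5 to 9, 9.37% with 10 to 19 and 10.3% (73 of 711) with 20 or more. Of the 26 genes with 20 or more sites, 21 held at least 1 low-level site. Among all genes of the list, 9.8% held one. The median number of sites was 5 in genes with a low-level site and 2 in all genes of the list. A gene with more sites has more chances to hold a low-level site, so these counts by gene follow in part from the number of sites.

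Positions along the gene were not used to choose the sites and were compared with those of the whole list. Of the 950 low-level sites inside a RefSeq gene span, 360 (37.9%) lay in the last 5 kb, against 49.7% of all listed sites. In the next range, 1.2% to under 1.4%, the share was 39.2%, and from 1.4% to under 2% it was 38.9%. It was 57.8% from 5% to under 10% and 66.0% at 10% or more. The low-level sites thus differed little from their neighbours in level, and the shares at the end of the gene were higher from 2% upward. The median distance to the 3′ end was 10285 bp for the low-level sites, 10181 bp in the next range and 5096 bp for the whole list. More than 100 kb from the end lay 81 low-level sites (8.53%), against 5.78% of all sites. In the first 1 kb of the span lay 100 low-level sites (10.5%), against 8.02% of all listed sites and 8.3% in the next range.

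The low-level sites were then set beside the other sites of the same genes. The other 3202 sites lay in 584 of the 679 genes, as the remaining genes had no other site. These 3202 sites had a median level of 2.35%. Of those inside the span, 50.1% lay in the last 5 kb and 4.48% in the first 1 kb, against 37.9% and 10.5% of the low-level sites. The low-level sites came from all 679 genes, so both sides do not cover the same genes. Sites of genes without any low-level site lay in the last 5 kb in 50.4% of cases and in the first 1 kb in 8.7%. The spans include introns, and exons, coding regions and untranslated regions were not analysed here. Sites of 1 gene share its reads, the libraries give no separate values, and these shares carry no test. Whether coverage along the gene moved with the position of these sites was not tested.

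Close neighbours were counted next. Another listed site on the same strand lay within 100 nt of 290 of them (29.6%), against 22.9% of all listed sites and 31.5% in the next range. In genes with a low-level site, 37.5% of the other sites had such a neighbour, a share above that of the low-level sites themselves. A neighbour within 20 nt was present for 118 (12.1%), against 8.72% of all listed sites and 11.9% in the next range. Its level was a median of 1.1 times that of the low-level site (quartiles 1.0 and 1.6). No listed site lies below 1.0%, so by the choice of sites this ratio could hardly fall under 1. In 59 of the 118 the neighbour was itself in the range, as were 5.51% of all listed sites. A pair of low-level sites can count from both sides, and these levels are the values that chose the sites, so this is a description. In Kcnj10, 2 sites 4 nt apart were both at 1.09%. In Psmc3, 2 sites 4 nt apart were at 1.01% and 1.02%, and in Wnk2, a kinase gene, 2 sites 3 nt apart were at 1.16% and 1.19%. Wider steps were seen in a few genes. Kif21b, a kinesin gene, had 1.16% and 3.76% at sites 2 nt apart, and only in Rnu3b1 did a neighbour within 20 nt reach 5% or more, at 26.82%. Runs of low-level sites with gaps of at most 100 nt numbered 64, 57 of them pairs. The longest runs, of 4 sites each, lay in Glud1 over 91 nt and in Kcnj10 over 106 nt. Runs of 3 lay in Slc1a3, Chst2, Tnfrsf19, Cdc37l1 and Utp14b.

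**Figure D3:**
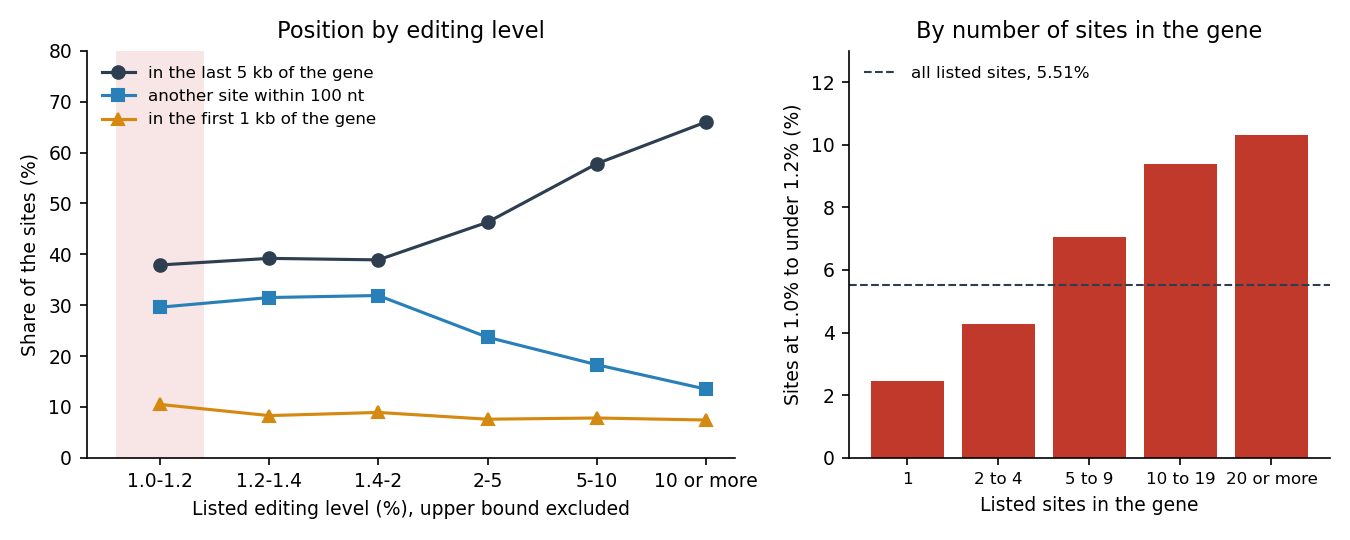
Left, share of sites (y axis) in the last 5 kb of the gene span, with another site within 100 nt and in the first 1 kb, for 6 ranges of listed editing level (x axis), with the low-level range shaded. Right, share of sites at 1.0% to under 1.2% by the number of listed sites in the gene, with the dashed line at 5.51% for all sites. The share in the last 5 kb goes from 37.9% in the lowest range to 66.0% at 10% or more.

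**Figure D4:**
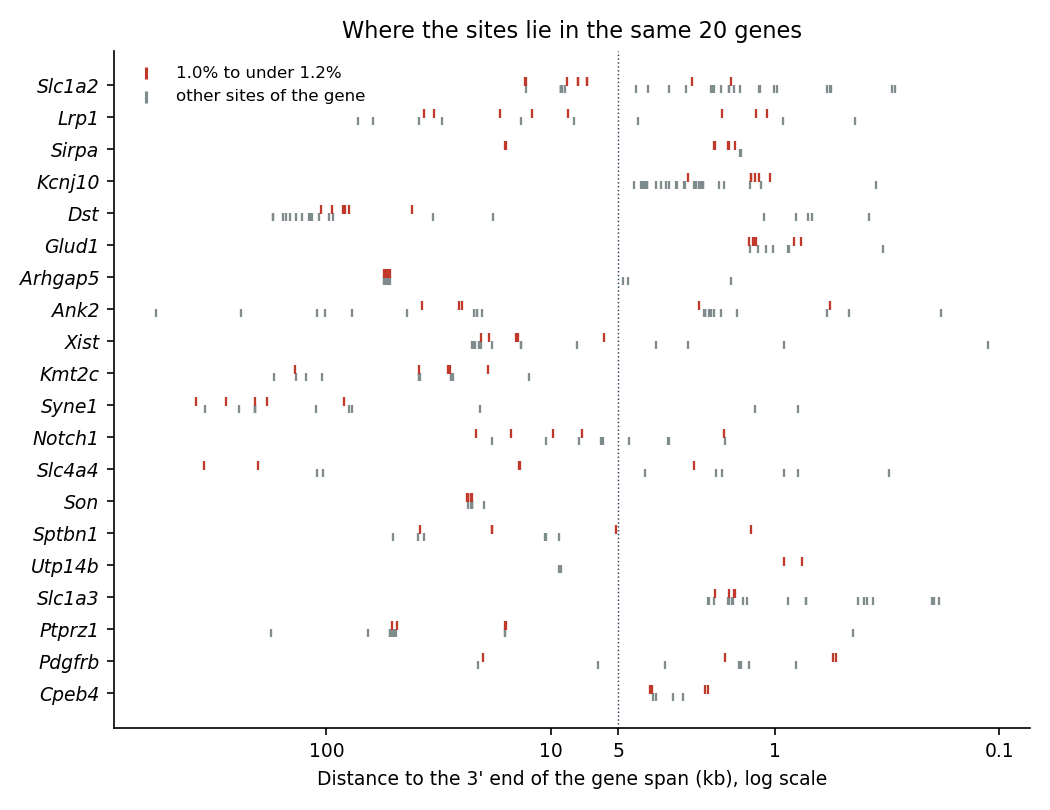
Distance of each site inside the RefSeq span to the 3′ end of its gene (x axis, kb, log scale, the 3′ end at the right) in the same 20 genes, with low-level sites in red and other sites in grey; the dotted line marks 5 kb. All red marks of Glud1, Kcnj10, Slc1a3 and Cpeb4 lie within 5 kb of the end, and 0 of those of Dst, Arhgap5, Kmt2c, Syne1, Son, Xist and Ptprz1 do. All grey marks of Glud1, Kcnj10, Slc1a3 and Cpeb4 lie there too, and no grey mark of Kmt2c or Son does.

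Across the functions covered by 25 lists of named genes, 239 low-level sites (24.4% of the 979) lay in genes of at least 1 list. Genes of these lists held 2332 of the 17755 listed sites, and 10.2% of those 2332 were in the range. In 19 of the 25 lists the share of sites in the range was above the 5.51% of all listed sites. The lists hold genes that are known to be expressed in brain, some genes stand in more than 1 list, and the counts carry no test. The 2332 sites of the lists lay in 469 genes, and the 17755 of the whole table in 6929. The share in the range went up with the number of sites in the gene. The part of this in the shares of the lists was not tested. Whether depth differs between the lists is unknown.

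Genes of lipid metabolism had 26 of 131 sites in the range (19.8%), in 11 of the 25 genes that had a site. This share was the largest of the 25 lists for the range from 1.0% to under 1.2%. With the range ended at 1.1%, the translation factor list had 11.5% and the lipid list 9.92%. Counted by genes with a low-level site, the astrocyte list had 76.2% and the lipid list 44.0%, against 9.8% of all genes of the list of sites. This count rises with the number of sites per gene, and the 21 astrocyte genes held 263 sites. The median level of all sites in the lipid list was 1.67%, against 3.64% for the whole list of sites. Lrp1 accounted for 8 of the 26, and without it the share was 15.8%. The fatty acid enzymes followed: Acsl3, which activates long-chain fatty acids, had 3 of 7, at 1.02%, 1.05% and 1.13%. Scd2, the brain stearoyl-CoA desaturase gene, had 2 of 16, at 1.02% and 1.13%. Elovl5, a fatty acid elongase gene, had 2 of 12, at 1.0% and 1.02%.

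Genes of translation and of RNA processing came next. In the translation factor list 11 of 61 sites were in the range (18.0%), in 8 of 20 genes with a site. Eif3a led it, followed by Eif5b, the factor for ribosomal subunit joining, with 2 of 8 at 1.0% and 1.08%. Eif4g1 and Eif4g2, scaffolds of initiation, had 1 of 6 each. In the RNA-binding and splicing list 18 of 102 sites were in the range (17.6%), in 9 of 28 genes, led by Son, Cpeb4 and Ddx17. With the range ended at 1.1%, the share of this list was 4.9%, against 2.82% of all sites. Hnrnpu, a nuclear matrix RNA-binding protein gene, had 1 of 10. Of the 18 genes named Hnrnp, 9 had a low-level site, 11 of 60 sites in all (18.3%). Among genes of the m6A machinery 3 of 37 sites were in the range: 1.18% in the writer subunit gene Rbm15, 1.1% in Hnrnpa2b1 and 1.09% in Hnrnpc, where it was the only site. Ribosomal protein genes had 2 of 21, 1.05% in Rps24 and 1.16% in Rpl22, and oxidative phosphorylation genes 1 of 23, 1.17% in the ATP synthase subunit gene Atp5d.

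Chromatin regulators and cytoskeletal genes were alike in share. Chromatin regulators had 27 of 194 sites in the range (13.9%), in 14 of 31 genes. After Kmt2c these were led by the corepressor gene Ncor1, with 3 of 12 at 1.02% to 1.12%, by Chd4, and by the histone methyltransferase gene Nsd1, with 2 of 15. Cytoskeletal and axonal genes had 27 of 190 (14.2%), in 9 of 24 genes. Dst, Ank2 and Sptbn1 led these, and Actb, the β-actin gene, had 3 of 8 at 1.03% to 1.12%. Actin has processed pseudogenes that can share reads. In the transcription factor list the share was 12 of 199 (6.03%), near that of all sites. Tcf4, a basic helix-loop-helix factor, had 3 of 19, at 1.05% to 1.07%, and Nfix, a nuclear factor I gene, 3 of 11. Pou3f3 had 2 of 22, and the 2 of 33 in the repressor gene Zbtb20 lay outside its RefSeq span.

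Genes of protein quality control, signalling and adhesion stood between these and the whole list. The chaperone and ubiquitin list had 12 of 120 (10.0%), with 2 each in the ubiquitin ligase genes Nedd4 and Ubr4. The kinase and phosphatase list had 9 of 102 (8.82%), with 3 of 9 in the growth factor receptor gene Fgfr2, 2 of 18 in the neurotrophin receptor gene Ntrk2, 2 of 14 in Pik3r1, the regulatory subunit gene of phosphoinositide 3-kinase, and 1 of 9 in Ppp1r9a. The adhesion and guidance list had 15 of 215 (6.98%). Lrp1 gave 8 of the 15, and without it the share was 3.54%. With the range ended at 1.1%, the adhesion and guidance list had 2.33%, below the 2.82% of all sites. Nfasc, Ncam1 and Fat3 had 2 each. The long noncoding RNA list had 9 of 87 (10.3%), with 2 of 4 in Malat1 (1.08% and 1.1%), 1 of 4 in Neat1 (1.17%) and 1 of 8 in Snhg14 (1.12%) after Xist.

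Markers of cell types were counted in the same way. The 5 glial and vascular lists together had 67 of 541 sites in the range (12.4%), in 30 of 80 genes with a site. The 3 neuronal lists had 3 of 91 (3.3%), in 2 of 35 genes. Of these lists, the pan-neuronal one had 1 of 39 (2.56%), the excitatory one 0 of 33 and the inhibitory one 2 of 19 (10.5%), the last above the 5.51% of all sites. With the range ended at 1.3%, the pan-neuronal share was 10.3%, above the 8.09% of all sites. The share in the range also went up with the number of sites in the gene. The glial and vascular lists held 541 sites in 80 genes and the neuronal lists 91 in 35. The part of this in their shares was not tested. Astrocyte markers had 43 of 263 (16.3%), in 16 of the 21 genes with a site. Without Slc1a2 their share was 15.1%. Astrocyte genes differed: Slc1a2 had 9 of 38 (23.7%), whereas Gja1 had 2 of 33 (6.06%) and Aqp4 1 of 45 (2.22%). Oligodendrocyte markers had 9 of 86 (10.5%), among them 2 of 16 in the myelin protein gene Mal, 1 of 9 in Mobp and 1 of 7 in the lineage factor gene Olig1. The other glial and vascular lists drew most of their low-level sites from 1 gene each. All 4 low-level sites of the precursor list were in Ptprz1, and without it the share was 0.0%. In the microglia list 3 of the 4 were in the selectin ligand gene Selplg (1.09%, 1.09% and 1.12%) and 1 in the protease gene Ctss, and in the endothelial and pericyte list 4 of the 7 were in Pdgfrb, with 1 each in Rgs5, Sparc and Slco1a4. Without Selplg the microglia share was 2.5%, and without Pdgfrb the endothelial and pericyte share was 3.26%, both below the 5.51% of all sites.

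Among neuronal markers, the sodium pump subunit gene Atp1b1 had 1 low-level site, at 1.17%. Immediate early genes had 0 of 21 sites in the range. Synaptic genes had few low-level sites: 4 of 117 (3.42%) in the presynaptic list, of which Syt11 had 1, and 3 of 105 (2.86%) in the postsynaptic list. Those 3 were 1.15% in Dlg4, the PSD-95 scaffold gene, where it was the only site, 1.12% in the GTPase exchange factor gene Kalrn and 1.05% in the scaffold gene Dlgap4. Counted by genes with a low-level site, the postsynaptic list had 11.1%, against 9.8% of all genes of the list of sites. In the ion channel list all 6 of 86 were in Kcnj10, and no other gene of that list had one. Cell types are read from gene names only, and the part of RNA from other cells in these shares was not tested.

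**Figure D5:**
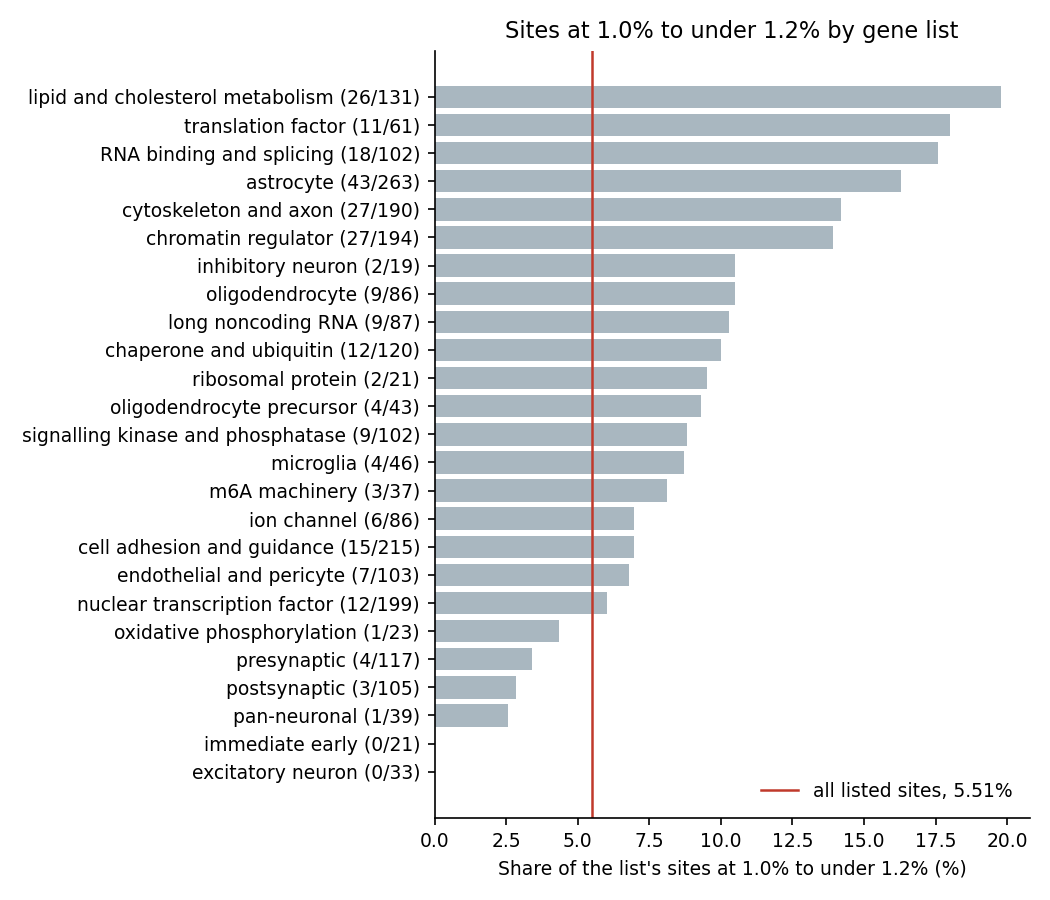
Share of the listed sites of each gene list that lay at 1.0% to under 1.2% (x axis), for 25 lists (rows, with low-level sites and all sites of the list in brackets); the red line marks 5.51%, the share of all listed sites. Lipid metabolism (19.8%), translation (18.0%), RNA processing (17.6%) and astrocyte markers (16.3%) stand highest, the synaptic, pan-neuronal and excitatory lists lie below the line, and the inhibitory neuron list (10.5%, 2 of 19 sites) lies above it.

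By gene name, Zfp zinc finger genes had 8 of 313 sites in the range (2.56%), Tmem genes 3 of 150 (2.0%) and Rab genes 1 of 86 (1.16%). Solute carrier genes had 31 of 344 (9.01%), with Slc1a2, Slc1a3 and Slc4a4 in front. The single Rab site was in Rab5a, a GTPase gene of early endosomes. By RefSeq class, protein-coding genes had 928 of the 979 low-level sites and long noncoding RNA genes 22. These were 5.57% and 5.49% of the sites of each class. Across the autosomes and chromosome X the share went from 3.51% on chromosome 13 to 8.54% on chromosome 14, and chromosome Y had 0 of its 3 sites in the range.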

How the data were processed

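Nuclei of 1 group (2 libraries) were represented by 1 table deposited by the authors, in which each site has a position, a strand, a gene and the editing fraction, printed here as percent. Sites were called with Bullseye per the series description, and reads were aligned with STAR 2.7.5 to mm10 per the submitters' processing notes. The caller's settings, control and coverage minimum, and the way of joining the libraries, were not given in the sources used here.

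Low-level sites were those at 1.0% to under 1.2%. Gene names were matched to RefSeq GRCm38.p6 by symbol (6439) or by a synonym of 1 gene only (17), and 950 of the 979 sites lay inside the span. Sites are 1-based, and their strand was that of RefSeq in 5167 of 5167 genes checked. Distances, neighbours and sequence windows came from Python 3.11.15 and pandas 2.3.3, checked on simulated data. Sequences are from RefSeq.

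Named genes were the 20 with the most low-level sites, up to 4 per list, the 5 with the largest share of at least 3 sites, and sites at the edges of the range. Members, lists and name families were chosen with earlier results of these data known. Some genes the rule names are not reported here. No test was run, because no values per library exist and sites of a gene share reads.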

Additional observations from a re-analysis of the deposited data

How the results depend on the processing

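Ending the range at 1.1% gave 500 sites and ending it at 1.3% gave 1436, against 979, and 955 remained with matched gene names. The share in the last 5 kb (37.9%) was 22.9% for the last 2 kb and 49.9% for the last 10 kb, below the 29.9% and 61.1% of all sites, and it was 37.1% to 38.6% under the other ranges and with 1 site per gene or without the 20 leading genes, an alternative chosen after seeing the data. A neighbour was present for 21.5% within 50 nt and 37.7% within 200 nt, against 16.3% and 30.1% of all sites. Sites at 2.4% or more were present in 499 of the 679 genes, and at 10% or more in 100 (14.7%). Among all genes of the list the shares were 88.8% and 31.5%. The count of lists above the share of all sites (19) was 17 to 21 under other ranges or counting genes, and 11 without each list's leading gene, by construction fewer low-level sites. The lists that fell below it then were precursor, microglia, endothelial and pericyte, inhibitory neuron, ion channel, adhesion, ribosomal protein and transcription factor. With the range ended at 1.1%, the adhesion (2.33%) and m6A (2.7%) lists lay below all sites (2.82%). With it ended at 1.3%, the pan-neuronal (10.3%) and oxidative phosphorylation (8.7%) lists lay above all sites (8.09%). Counted by genes, the postsynaptic list (11.1%) lay above all genes (9.8%) and the ion channel list (4.76%) below. Leaving out a library was not possible, as the values are not separate, and coverage, which limits how low a level can be listed, is unknown. No paired analysis was possible because there is 1 group.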
